A study of Mus musculus with 14 samples.

Results

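The genes described here are 32 genes that make fatty acids, desaturate and lengthen them, and join them to glycerol as triglyceride, out of 35275 genes in the expression table of brown adipose tissue. They were taken by name, in a list chosen with earlier results of these data known, and each symbol matched a single mouse gene identifier in the table. They comprise 8 enzymes and carriers of de novo fatty acid synthesis (Acly, Acss2, Acaca, Acacb, Fasn, Me1, Slc25a1 and Aacs), 6 enzymes of desaturation and elongation (Scd1, Scd2, Fads1, Fads2, Hsd17b12 and Tecr) and 4 regulators (Srebf1, Mlxipl, Thrsp and Insig2). The others are 3 genes of glycerol 3-phosphate supply (Gpd1, Pck1 and Aqp7) and 11 genes of acyl transfer to glycerol and its remodelling (Gpam, Agpat1, Agpat2, Agpat3, Lpin1, Lpin2, Lpin3, Dgat1, Dgat2, Pnpla3 and Lpcat3). All 32 passed the filter on low values, 1 FPKM or more in 3 or more animals, and entered the tests, with 13079 genes in all.

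RNA sequencing was done on brown adipose tissue of 14 C57BL/6 mice at 8 weeks of age, 1 library per animal. Every animal carried floxed alleles of Lrpprc, whose protein enters mitochondria and stabilises their messenger RNA. Controls had these alleles alone (LrpprcFF), and knockouts also had a Cre transgene driven by Ucp1 (LrpprcFF Ucp1-Cre), so that cells of the tissue that do not express Ucp1 keep the gene. Mice were housed at room temperature (22 °C, 4 controls and 4 knockouts) or at thermoneutrality (30 °C, 3 controls and 3 knockouts), the temperature at which a mouse needs no extra heat production. The labels name brown adipocytes, but the RNA came from homogenized tissue. In such bulk tissue, fewer cells of a type and less RNA per cell cannot be told apart.

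Brown fat burns fatty acids to make heat, and in the cold it also makes them. Citrate leaves the mitochondrion, is cleaved to acetyl-CoA, and acetyl-CoA carboxylase and fatty acid synthase turn it into palmitate, which stearoyl-CoA desaturases and elongases modify. The acyl chains are then attached to glycerol 3-phosphate in steps that end with a diacylglycerol acyltransferase. Transcription of these enzymes is known to be driven by SREBP-1, the product of Srebf1, and by ChREBP, the product of Mlxipl, a factor activated by carbohydrate.

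The stretches below are the 250 bases before the transcription start of 4 genes on which the results turn: Fasn, an enzyme with one of the widest temperature ranges, and Thrsp, Acacb and Mlxipl, which differed between genotypes at 30 °C. They are RefSeq sequences of build GRCm38.p6, printed 5′ to 3′ on the strand of the gene. Capitals mark matches on either strand to the E-box CACGTG bound by ChREBP and its partner Mlx, to the core TCACNCCAC of a sterol response element, bound by SREBP, and to the CCAAT box (CCAAT or its complement ATTGG).
Fasn (chr11:120824548-120824797, minus strand): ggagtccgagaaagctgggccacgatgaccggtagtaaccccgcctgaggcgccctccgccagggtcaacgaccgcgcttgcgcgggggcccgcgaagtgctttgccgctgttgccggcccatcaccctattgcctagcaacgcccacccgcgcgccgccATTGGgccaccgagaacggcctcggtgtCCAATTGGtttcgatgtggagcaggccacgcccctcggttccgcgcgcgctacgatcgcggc
Thrsp (chr7:97417551-97417800, minus strand): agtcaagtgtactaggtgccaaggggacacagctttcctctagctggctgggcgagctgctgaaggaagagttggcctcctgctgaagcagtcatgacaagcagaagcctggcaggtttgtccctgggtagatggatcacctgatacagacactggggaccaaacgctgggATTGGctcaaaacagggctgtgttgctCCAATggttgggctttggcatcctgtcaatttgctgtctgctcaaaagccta
Acacb (chr5:114165268-114165517, plus strand): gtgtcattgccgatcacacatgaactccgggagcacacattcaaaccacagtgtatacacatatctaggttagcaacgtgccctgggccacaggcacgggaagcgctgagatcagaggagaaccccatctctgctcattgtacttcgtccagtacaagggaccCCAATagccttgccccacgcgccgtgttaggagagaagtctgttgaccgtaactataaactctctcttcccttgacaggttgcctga
Mlxipl (chr5:135089640-135089889, plus strand): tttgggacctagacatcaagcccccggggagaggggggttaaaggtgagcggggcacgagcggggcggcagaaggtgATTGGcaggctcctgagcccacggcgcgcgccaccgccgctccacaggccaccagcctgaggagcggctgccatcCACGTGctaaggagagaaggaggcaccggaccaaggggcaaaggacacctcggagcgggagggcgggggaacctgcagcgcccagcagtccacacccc
Mlxipl (chr5:135106641-135106890, plus strand): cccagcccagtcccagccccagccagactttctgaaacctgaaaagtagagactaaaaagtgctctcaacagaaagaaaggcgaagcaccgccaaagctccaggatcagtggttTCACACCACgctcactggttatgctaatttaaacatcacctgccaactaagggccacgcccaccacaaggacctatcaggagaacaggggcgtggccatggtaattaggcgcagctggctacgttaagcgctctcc
Mlxipl has 2 annotated starts, 17001 bases apart, and the values per gene do not separate their transcripts. The upstream Mlxipl stretch held an E-box at bases 98 to 93 before the start and a CCAAT box, and the downstream one held the sterol response element core at bases 136 to 128. Fasn had 3 matches to the CCAAT box, of which those at bases 62 to 58 and 59 to 55 overlap, Thrsp had 2 and Acacb had 1. RefSeq promoters were at hand for 26 of the 32 genes, with 38 entries in all. The E-box was in 3 of these 38 (in Lpin2, Mlxipl and Slc25a1) against 6.02% of 32851 promoters of all genes, the sterol response element core in 1 of 38 against 1.05%, and the CCAAT box in 17 of 38 against 33.8%. A match of these letters is a description of the sequence and does not show binding.

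The values given below are FPKM, fragments normalised to transcript length and library depth, divided by 1 factor per library, and are called scaled FPKM. Log2 differences were taken on log2(scaled FPKM + 1). A gene is said to rise or fall, or to be called, where limma's p-value, after Benjamini-Hochberg adjustment across all genes tested, was under 0.05. Depth recovered from the table was 15.9 to 21.3 M fragments per library, and the member with the fewest reads, Lpin3, had at least 168 reads in every library. Lrpprc, the targeted gene, was at 25.3 to 57.3 scaled FPKM in the 22 °C controls and 8.84 to 11.2 in the 22 °C knockouts, and at 30.3 to 32.8 and 4.97 to 8.56 at 30 °C. Of the brown adipocyte markers, Ucp1 was at 269 scaled FPKM or more in every library, while Elovl3 was at 0.075 to 1.42 in the 30 °C controls and 0.26 to 0.62 in the 30 °C knockouts. Xist, transcribed from the inactive X chromosome, was at 9.7 to 13.7 and 11.9 to 15.3 in the 30 °C controls and knockouts and at no more than 0.014 in any 22 °C animal. Ddx3y, on the Y chromosome, was at 16.3 to 23.9 and 18 to 22.1 in the 22 °C groups and at no more than 0.024 at 30 °C. Housing temperature and sex therefore cannot be told apart in any comparison of 22 °C with 30 °C. Nothing in the labels pairs the animals, and 2 of the 4 22 °C controls (replicates 3 and 4) carry identifiers that begin with another letter than the rest.

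Expression of the 32 genes covered a wide range. In the 22 °C controls the highest level per length was that of Scd1, the main stearoyl-CoA desaturase of fat, at 7557 ± 2569 (SD, n = 4) scaled FPKM, ahead of Fasn at 2599 ± 916.02 (SD, n = 4). Thrsp and Gpd1 followed, at 2217 ± 258 (SD, n = 4) and 2087 ± 569 (SD, n = 4), and the ranges of Fasn, Thrsp and Gpd1 overlapped. Lpin2, a phosphatidate phosphatase, had the lowest level, 2.67 ± 0.34 (SD, n = 4), next to Lpin3 at 3.86 ± 1.14 (SD, n = 4). At 30 °C the order in controls changed at the top, with Gpd1 at 1678 ± 631 (SD, n = 3), Pck1 at 1342 ± 229.6 (SD, n = 3), Dgat2 at 1281 ± 203 (SD, n = 3) and Thrsp at 1099 ± 194 (SD, n = 3) above Scd1 at 942 ± 113 (SD, n = 3), whose range overlapped that of Thrsp. Chromosome 19 carries 5 of the 32 genes (Scd1, Scd2, Fads1, Fads2 and Gpam) and chromosome 2 another 5 (Acss2, Hsd17b12, Pck1, Agpat2 and Lpin3). Chromosome 11 carries 4 (Acly, Acaca, Fasn and Srebf1). Scd1 and Scd2 share 88.0% of 1195 aligned transcript bases, so the split of reads between them is uncertain. Exons of 11 members overlap another gene, most of all those of Gpd1 (13% of bases) and Lpcat3 (10.2%), and the use of strand in counting is not given in the sources used here.

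**Figure D1:**
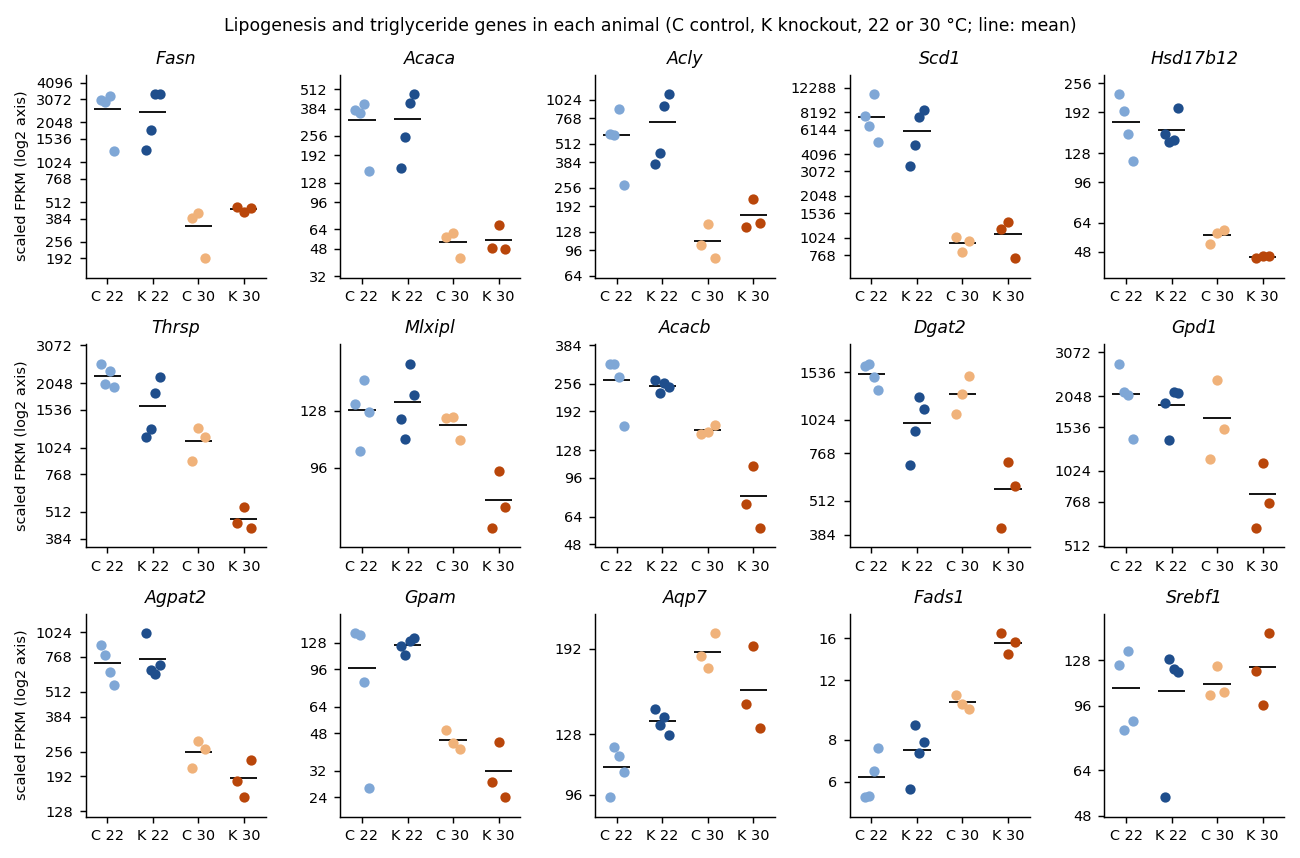
Scaled FPKM of 15 of the 32 genes in each animal, on log2 axes that differ between panels; each point is an animal, the line is the group mean, and C and K stand for control and knockout at 22 or 30 °C. Fasn, Acaca, Acly, Scd1 and Hsd17b12 separate the temperatures, Thrsp, Acacb, Dgat2 and Mlxipl have their lowest means in the 3 knockouts at 30 °C, and Fads1 its highest.

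Animals of 1 group differed widely in the enzymes of fatty acid synthesis, mostly together. Fasn was at 3011, 2916, 3231 and 1239.7 scaled FPKM in the 22 °C controls and at 1265, 1812, 3354 and 3353 in the 22 °C knockouts. The fourth control and the first knockout were the low animals, and the ranges of the genotypes overlapped. At 30 °C Fasn was at 387, 423 and 193 in controls and 471, 427 and 457 in knockouts, below every 22 °C animal. The fourth 22 °C control was lowest of its group in 8 of the 8 genes of fatty acid synthesis and in 24 of all 32. Gpam, the mitochondrial enzyme that starts glycerolipid synthesis, was at 142, 139, 83.3 and 26.4 in those controls, which put this animal among the 30 °C values. Among the 22 °C knockouts the first was lowest in 7 of the 8 synthesis genes and the fourth highest in 6 of 8. Of the 30 °C controls the third, lowest in 7 of 8, was also the one with the lowest sum of 10 skeletal muscle markers, 23.4 against 14177 in the highest of that group. The muscle sum was 462 to 6978 in the 22 °C controls, 554.7 to 1469.8 in the 22 °C knockouts and 2168 to 9094 in the 30 °C knockouts, and its part in the spread was not tested.

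**Figure D2:**
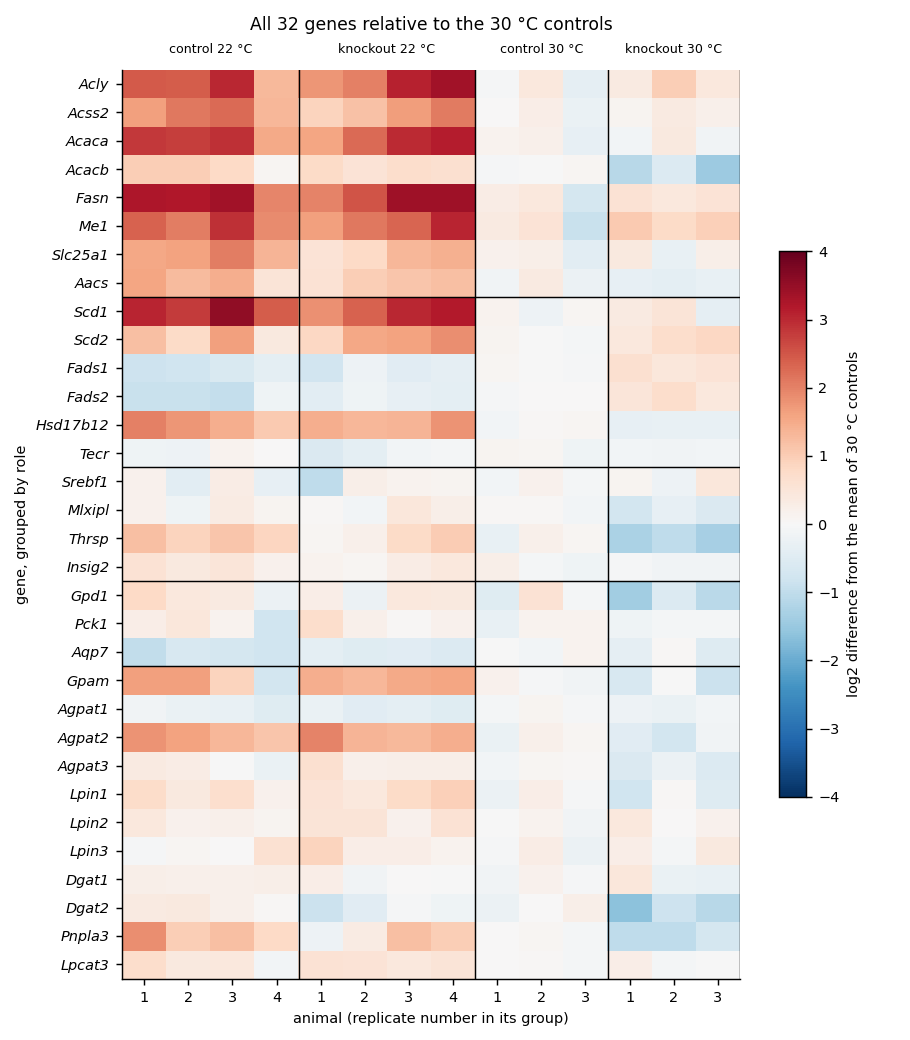
Log2 difference of scaled FPKM + 1 from the mean of the 30 °C controls for the 32 genes (rows, grouped by role) in each of the 14 animals (columns); red is higher and blue lower. The 8 genes of fatty acid synthesis are red in the 22 °C animals, mostly palest in the fourth control and the first knockout, and Thrsp, Dgat2, Acacb and Gpd1 are blue in the 3 knockouts at 30 °C.

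The first comparison asked how the genes differed between room temperature and thermoneutrality in animals without Cre. In controls 15 of the 32 were higher at 22 °C, against 18.2% of all genes tested, and 4 were lower, against 20.5% of all genes. Their median log2 difference was 0.45, with a median of -0.05 over all genes. All 8 genes of fatty acid synthesis rose, with a median of 2.07. In this comparison 3 of 10 adipocyte markers and 5 of 9 brown adipocyte markers were also higher at 22 °C, 4 adipocyte markers were lower, and 6 of 10 macrophage markers were lower. The summed adipocyte markers were 16789 to 20789 scaled FPKM at 22 °C and 14273 to 16654 at 30 °C, and the summed macrophage markers 39.4 to 55.1 and 83 to 317. All 4 epithelial markers tested (Epcam, Krt8, Krt18 and Krt19) were lower at 22 °C, with a median log2 difference of -3.49; the 7 listed summed to 0.03 to 0.18 at 22 °C, where Krt14 and Krt5 were at 0 in every control, against 18.3 to 63 at 30 °C. Endothelial markers were lower in 3 of 8 cases, with sums of 189 to 435 against 448 to 487, and stromal markers in 1 of the 4 tested. No skeletal muscle marker was called, and their sums were 462 to 6978 against 23.4 to 14177. The part of these cell types in the result was not tested.

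Among the enzymes that make palmitate, Fasn was 7.78-fold higher in 22 °C controls than in 30 °C controls, 2599 ± 916.02 (SD, n = 4) against 334 ± 124 (SD, n = 3), a log2 difference of 2.94 (SE 0.40, adjusted p = 0.000441). Acaca, the cytosolic acetyl-CoA carboxylase, was 6.11-fold higher, with 152 to 408 scaled FPKM at 22 °C and 41.8 to 60.3 at 30 °C, a log2 difference of 2.51 (SE 0.38, adjusted p = 0.000685). Acacb, the carboxylase of the mitochondrial surface whose product restrains fatty acid import, had the smallest change of the 8, 0.71 (SE 0.23, adjusted p = 0.025). Its ranges overlapped, and the call was lost without control 1 or 2 at 22 °C or control 1 or 2 at 30 °C. The precursor suppliers moved in the same direction. ATP citrate lyase, encoded by Acly, was 5.28-fold higher, 586 ± 255 (SD, n = 4) against 111 ± 30.7 (SD, n = 3). Slc25a1, the mitochondrial citrate carrier, was at 483, 506, 676 and 424 in the 22 °C controls and at 186, 192 and 123 in the 30 °C controls, a log2 difference of 1.64 (SE 0.25, adjusted p = 0.00065). Acss2 makes acetyl-CoA from acetate. It was at 94.6, 131, 149 and 76 at 22 °C and 29.9, 36 and 24.5 at 30 °C, a log2 difference of 1.83 (SE 0.27, adjusted p = 0.00061). For Me1, which supplies NADPH, and Aacs, which activates acetoacetate, the differences were 2.3 (adjusted p = 0.000837) and 1.21 (adjusted p = 0.00197).

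Desaturases divided into a group that rose and a group that fell. Scd1 was at 7679, 6477, 11048 and 5022 scaled FPKM in the 22 °C controls and 1032, 815 and 979 in the 30 °C controls, without overlap. The log2 difference was 2.95 (SE 0.33, adjusted p = 0.000145), or 8.02-fold, and it had the smallest p of the 32 genes. Scd2 rose by less, 1.0 (adjusted p = 0.0129). Hsd17b12, the ketoacyl reductase of the elongation cycle, was at 229.8, 195, 155 and 118 at 22 °C and 52, 57.9 and 59.6 at 30 °C, a difference of 1.57 (SE 0.19, adjusted p = 0.000205). Tecr, which encodes the last enzyme of the same cycle, was not called, -0.05 (adjusted p = 0.781), with a 95% interval of -0.35 to 0.24. Fads1 and Fads2, the desaturases of polyunsaturated fatty acids, were lower at 22 °C. Fads1 was at 5.41, 5.44, 6.46 and 7.54 at 22 °C and 10.9, 10.2 and 9.88 at 30 °C, a difference of -0.66 (SE 0.14, adjusted p = 0.00302). Fads2 differed by -0.72 (adjusted p = 0.00511), a call that was lost after correction for GC content.

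Of the regulators, Thrsp, a nuclear protein that promotes expression of lipogenic enzymes, was at 2522, 2034, 2336 and 1974 in the 22 °C controls and 885, 1264 and 1148 in the 30 °C controls, a difference of 1.02 (SE 0.21, adjusted p = 0.00328). Insig2, which retains SREBP in the endoplasmic reticulum, was called with a small rise, 0.41 (adjusted p = 0.0229), and overlapping ranges. The call was lost without control 1 at 22 °C or control 2 or 3 at 30 °C. It held in 11 of 13 alternative fits, and was lost with only the groups compared and after correction for GC content. The messenger RNA of the 2 main lipogenic transcription factors was not called: Srebf1 was at 107 ± 26.4 (SD, n = 4) and 110.4 ± 11.7 (SD, n = 3), a difference of -0.07 (adjusted p = 0.867) with a 95% interval of -0.67 to 0.53, and Mlxipl differed by 0.1 (adjusted p = 0.625). Insig1, a homologue of Insig2 outside the 32 genes and itself a target of SREBP, rose by 1.35 (SE 0.33, adjusted p = 0.0068).

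Of the 3 genes that supply glycerol 3-phosphate, 1 was called, and it fell. Aqp7, the glycerol channel of fat cells, was at 95, 121, 115 and 107 at 22 °C and 186, 175 and 207 at 30 °C. It fell to 57.9% of the 30 °C level, a difference of -0.79 (SE 0.13, adjusted p = 0.00105). Gpd1, which reduces dihydroxyacetone phosphate to glycerol 3-phosphate, differed by 0.34 (adjusted p = 0.374), and Pck1, the enzyme of glyceroneogenesis, by 0.01 (adjusted p = 0.975). Of the 11 genes of acyl transfer, 2 rose and 1 fell. Agpat2, the acyltransferase that makes phosphatidate in fat, was at 882, 783, 644 and 551 at 22 °C and 211, 290.3 and 265 at 30 °C, a difference of 1.47 (SE 0.21, adjusted p = 0.000498). Pnpla3, a lipid droplet protein, rose by 1.2 (adjusted p = 0.00781). Agpat1 fell by 0.30 on the log2 scale (adjusted p = 0.0281), its direction turned after correction for GC content, and the call was lost without control 2 or 3 at 30 °C. It was called in 8 of 13 alternative fits. Quantile normalization, scaling to adipocyte markers, fitting only the groups compared and leaving out the controls with R identifiers also ended the call. The last enzymes of the pathway, Dgat1 and Dgat2, differed by 0.22 (adjusted p = 0.297) and 0.25 (adjusted p = 0.376).

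**Figure D3:**
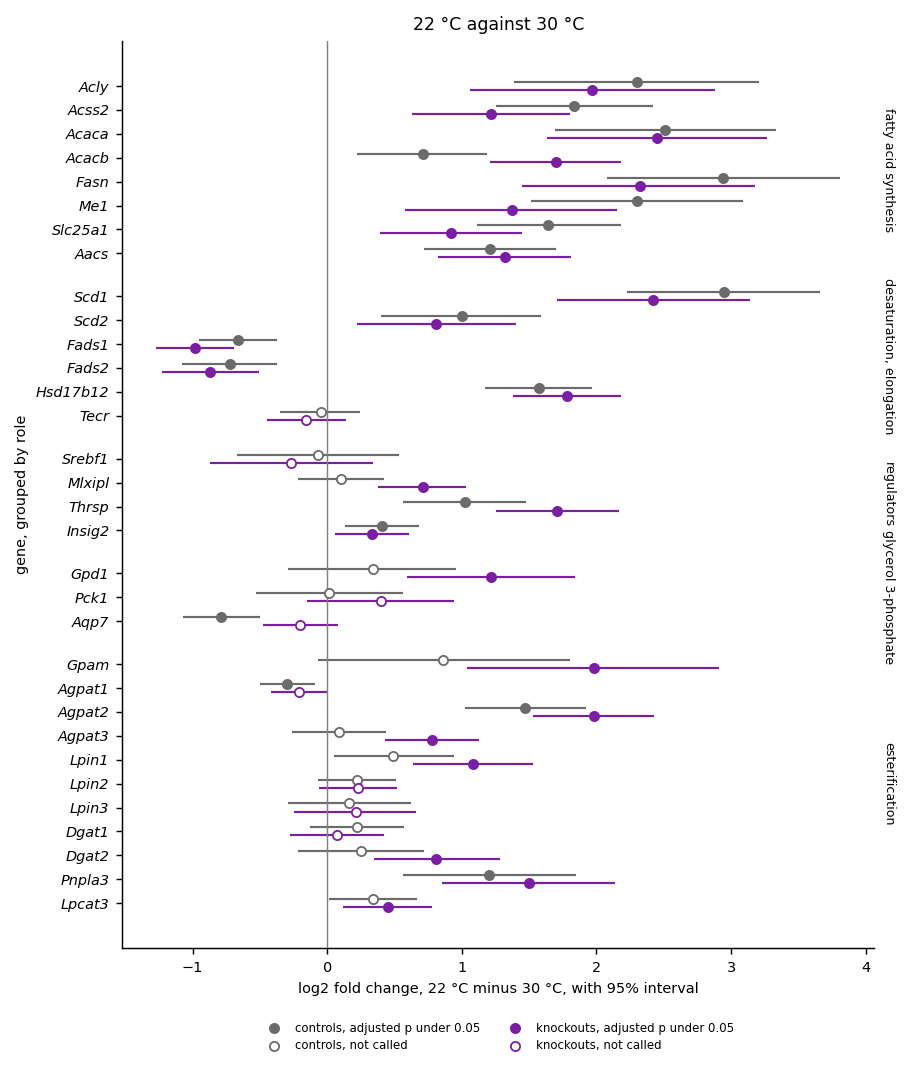
Log2 difference between 22 °C and 30 °C for the 32 genes in controls (grey) and knockouts (purple), with 95% intervals; filled points have an adjusted p under 0.05. All 8 fatty acid synthesis genes lie to the right of 0 in both genotypes, and Fads1 and Fads2 to the left.

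Knockouts were compared between the temperatures in the same way, and the 30 °C animals again differed from the 22 °C animals in Xist and Ddx3y. Of the 32 genes 22 were higher at 22 °C, against 21.8% of all genes, and 2 were lower, against 29.3%. Their median was 0.87, with -0.07 over all genes. The 8 fatty acid synthesis genes all rose, with a median of 1.53. Hsd17b12 was at 155, 143, 145 and 199.9 in the 22 °C knockouts and 45.1, 46.2 and 45.9 in the 30 °C knockouts, a difference of 1.78 (SE 0.19, adjusted p = 3.49e-05). Agpat2 was at 1009.6, 657, 626 and 700.2 at 22 °C against 183, 151 and 232 at 30 °C, 3.97-fold apart, and the log2 difference was 1.98 (SE 0.21, adjusted p = 3.73e-05). Both enzymes showed no overlap of the temperatures. Scd1 was at 3354, 4798, 7517 and 8451 at 22 °C against 1194, 1341 and 733 at 30 °C, 5.54-fold apart, a difference of 2.42 (SE 0.33, adjusted p = 0.000142). Fasn and Acaca rose by 2.32 (adjusted p = 0.000546) and 2.45 (adjusted p = 0.000291). Thrsp was at 1143, 1250.5, 1847 and 2178 at 22 °C against 455, 538 and 433 at 30 °C, a difference of 1.71 (SE 0.21, adjusted p = 8.41e-05). Acacb was at 267, 233, 259 and 248 at 22 °C against 72.7, 109 and 57.1 at 30 °C, a difference of 1.7 (SE 0.23, adjusted p = 0.000117). Fads1 was the opposite case, at 5.7, 8.87, 7.28 and 7.87 at 22 °C against 16.5, 14.3 and 15.6 at 30 °C, lower at 22 °C by 0.98 on the log2 scale (SE 0.14, adjusted p = 0.000151). All 10 macrophage markers were also lower in the 22 °C knockouts, summed 59.6 to 168 against 488 to 1655, and 7 of 9 brown adipocyte markers were higher. Of the 10 adipocyte markers 5 were higher and 1 lower, summed 13017 to 14665 against 8823 to 11184. Lower in the 22 °C knockouts were also 3 of 4 stromal markers tested, summed 67.5 to 122 against 207 to 438, and 3 of 4 epithelial markers, summed 0.027 to 0.27 against 1.66 to 11.2. The same held for both B cell markers tested, summed 1.12 to 2.15 against 4.63 to 26.2, and for 2 of 8 endothelial markers. The 8 endothelial markers summed to 217 to 318 against 815 to 890.0. Their log2 differences ran from -4.48 to 0.42, with a median of -0.15 and 3 above 0. Skeletal muscle sums were 554.7 to 1469.8 against 2168 to 9094, with 0 of 9 markers called. The part of these cell types in the result was not tested.

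In knockouts the calls of Scd2, Insig2 and Lpcat3, with 0.81, 0.33 and 0.45, were lost without some of the animals: Scd2 without knockout 2, 3 or 4 at 22 °C or 1 at 30 °C, Insig2 without 3 or 4 at 22 °C or any at 30 °C, and Lpcat3 without 2 or 3 at 30 °C. Insig2 was called in 7 of 12 alternative fits, and Scd2 and Lpcat3 each in 11 of 12. Scaling to adipocyte markers ended each of these calls. Both genotypes shared 15 genes that were higher and 2 that were lower at 22 °C. The 15 were the 8 genes of fatty acid synthesis with Scd1, Scd2, Hsd17b12, Thrsp, Insig2, Agpat2 and Pnpla3, and the 2 were Fads1 and Fads2. Another 7 genes were called higher at 22 °C in knockouts and not in controls: Mlxipl, Gpd1, Gpam, Agpat3, Lpin1, Dgat2 and Lpcat3. Gpam rose by 1.98 (adjusted p = 0.00235) in knockouts and its difference in controls was 0.86 (adjusted p = 0.128); Lpin1, a phosphatidate phosphatase, rose by 1.08 (adjusted p = 0.00106), against 0.49 (adjusted p = 0.0747) in controls. Without the fourth 22 °C control, the low animal named above, Gpam, Lpin1 and Lpcat3 were called in controls as well, at 1.39 (adjusted p = 0.000783), 0.6 (adjusted p = 0.0364) and 0.5 (adjusted p = 0.00393). Aqp7 and Agpat1 were called lower in controls and not in knockouts. The difference between the genotypes in this respect, tested below, was called for 0 of the 9. Tecr, Srebf1, Pck1, Lpin2, Lpin3 and Dgat1 were called in neither genotype.

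Deletion of Lrpprc was examined at 30 °C in 3 knockouts and 3 controls. Of the 32 genes 5 were lower in knockouts, against 5.29% of all genes, and 1 was higher, against 8.82%. The 5 were Thrsp, Dgat2, Acacb, Mlxipl and Gpd1, and the 1 was Fads1. The median log2 difference was -0.11, with 0.06 over all genes, and 18 of the 32 differences were below 0. In the same animals 4 of 10 adipocyte markers fell, among them Adipoq, the gene of adiponectin, by 1.24 and Cidec, a lipid droplet gene, by 1.21 on the log2 scale. Of the 10 differences 3 were above 0, and the median was -0.33. Summed adipocyte markers were 14273 to 16654 scaled FPKM in controls and 8823 to 11184 in knockouts, and summed brown adipocyte markers 5949 to 7939.9 and 2828 to 3994. Of the 9 brown adipocyte markers 4 were called lower and 0 higher. As a set they had a median log2 difference of -0.11, with 4 differences above 0. Macrophage markers rose in 9 of 10 cases, with sums of 83 to 317 and 488 to 1655, and stromal markers in 3 of the 4 tested, with sums of 111 to 121 and 207 to 438. All 4 epithelial markers tested (Epcam, Krt8, Krt18 and Krt19) were lower in the knockouts, with sums of 18.3 to 63 and 1.66 to 11.2. Of 8 endothelial markers 1 rose, by 2.39 on the log2 scale, while 7 differences were below 0 and the median was -0.23. Endothelial sums were 448 to 487 in controls and 815 to 890.0 in knockouts. Of 9 skeletal muscle markers tested 0 were called, all 9 differences were above 0 and the median was 1.92. Muscle sums were 23.4 to 14177 in controls and 2168 to 9094 in knockouts. Of 5 hepatocyte markers 2 were tested and 0 called. Hepatocyte sums were 23, 2.29 and 1.3 in the 30 °C controls and 165, 3.44 and 1.1 in the 30 °C knockouts, the first animal being highest in each group. The part of these cell types in the differences below was not tested.

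Thrsp was at 885, 1264 and 1148 scaled FPKM in the 30 °C controls and 455, 538 and 433 in the 30 °C knockouts. Every knockout lay below every control, at 43.2% of the control mean. The log2 difference was -1.2 (SE 0.23, adjusted p = 0.00541). Mlxipl was at 123, 124 and 110.2 in controls and 70.9, 94.4 and 78.8 in knockouts, again without overlap, a difference of -0.55 (SE 0.16, adjusted p = 0.0362); it was called in 7 of 12 alternatives, and the difference was -0.26 (adjusted p = 0.231) with FPKM as deposited and -0.1 (adjusted p = 0.624) when libraries were scaled to adipocyte markers. Srebf1 and Insig2 were not called, with 0.13 (adjusted p = 0.819) and -0.11 (adjusted p = 0.66), and the 95% interval of Srebf1 was -0.51 to 0.77. The difference for Insig1 was 0.06 (adjusted p = 0.937).

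Dgat2, one of the enzymes that complete triglyceride, was at 1080.5, 1277 and 1487 in the 30 °C controls and 408, 715 and 584 in the knockouts, 44.4% of the control mean. Its log2 difference of -1.2 (SE 0.23, adjusted p = 0.00588) was the only one of the 6 called in every alternative fit and without each animal in turn. Dgat1, an unrelated enzyme of the same reaction, differed by -0.03 (adjusted p = 0.935), with a 95% interval of -0.40 to 0.35. Gpd1 was at 1148, 2376 and 1509.6 in controls against 605, 1104 and 758 in knockouts, a difference of -1.01 (SE 0.31, adjusted p = 0.0462), and it was called in 4 of 12 alternatives, with -0.62 (adjusted p = 0.187) after quantile normalization and -0.55 (adjusted p = 0.09) with adipocyte scaling. Gpam, Agpat2, Agpat3 and Lpin1 had differences of -0.5, -0.45, -0.45 and -0.41, none of them called. Aqp7, at -0.27, was called without knockout 2 (-0.43, adjusted p = 0.0339). Pnpla3 was at 48.8, 50.5 and 45.6 in controls against 23.3, 23.5 and 29.2 in knockouts, without overlap, and was not called either, -0.91 (adjusted p = 0.0759).

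Acacb was the 1 gene of fatty acid synthesis that differed by genotype at 30 °C. It was at 152, 155 and 168 in controls and 72.7, 109 and 57.1 in knockouts, 50.2% of the control mean and without overlap. The log2 difference was -1.03 (SE 0.24, adjusted p = 0.0134). Its cytosolic counterpart Acaca was at 57.4, 60.3 and 41.8 in controls against 48.4, 68.7 and 47.5 in knockouts, a difference of 0.04 (adjusted p = 0.96) with a 95% interval of -0.84 to 0.92. Fasn and Me1 were above the controls in all 3 knockouts but were not called, with 0.51 (adjusted p = 0.48) and 0.91 (adjusted p = 0.142). For Acly, Acss2, Slc25a1 and Aacs the differences were 0.59, 0.23, 0.1 and -0.34, none of them called.

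Fads1 was the 1 gene that rose in the 30 °C knockouts, with 10.9, 10.2 and 9.88 scaled FPKM in controls and 16.5, 14.3 and 15.6 in knockouts, a ratio of 1.5 and a log2 difference of 0.54 (SE 0.15, adjusted p = 0.0263). Fads2, its neighbour on chromosome 19, was at 8.76, 9.19 and 9.05 in controls against 13, 15.3 and 12.5 in knockouts, without overlap, and did not pass, 0.54 (adjusted p = 0.0586). Scd2 differed by 0.65 (adjusted p = 0.166) and Scd1 by 0.17 (adjusted p = 0.802). An exact permutation test over animals, two-sided, can go no lower than p = 0.1 with 3 against 3, and it reached that value for each of the 6 called genes. With FPKM as deposited the same test gave 0.2 for Mlxipl and Gpd1 and 0.1 for the others. Without 1 animal, Thrsp and Dgat2 kept their call in 6 of 6 fits, Acacb in 4, Gpd1 in 2, and Fads1 and Mlxipl in 1; the adjusted p of Acacb was 0.0543 without knockout 1 and 0.0682 without knockout 3. Leaving out control 1, 2 or 3 or knockout 1 or 3 ended the calls of Fads1 (adjusted p of 0.0559 to 0.101) and Mlxipl (0.058 to 0.153), and leaving out control 2 or 3 or knockout 1 or 3 ended that of Gpd1 (0.0883 to 0.188). With a skeletal muscle score as covariate the difference for Fads1 was 0.47 (adjusted p = 0.0518), and without it 0.54. For Gpd1 it was -0.92 (adjusted p = 0.0791) with the score and -1.01 without. Acacb, Mlxipl, Thrsp and Dgat2 kept their call with this covariate.

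**Figure D4:**
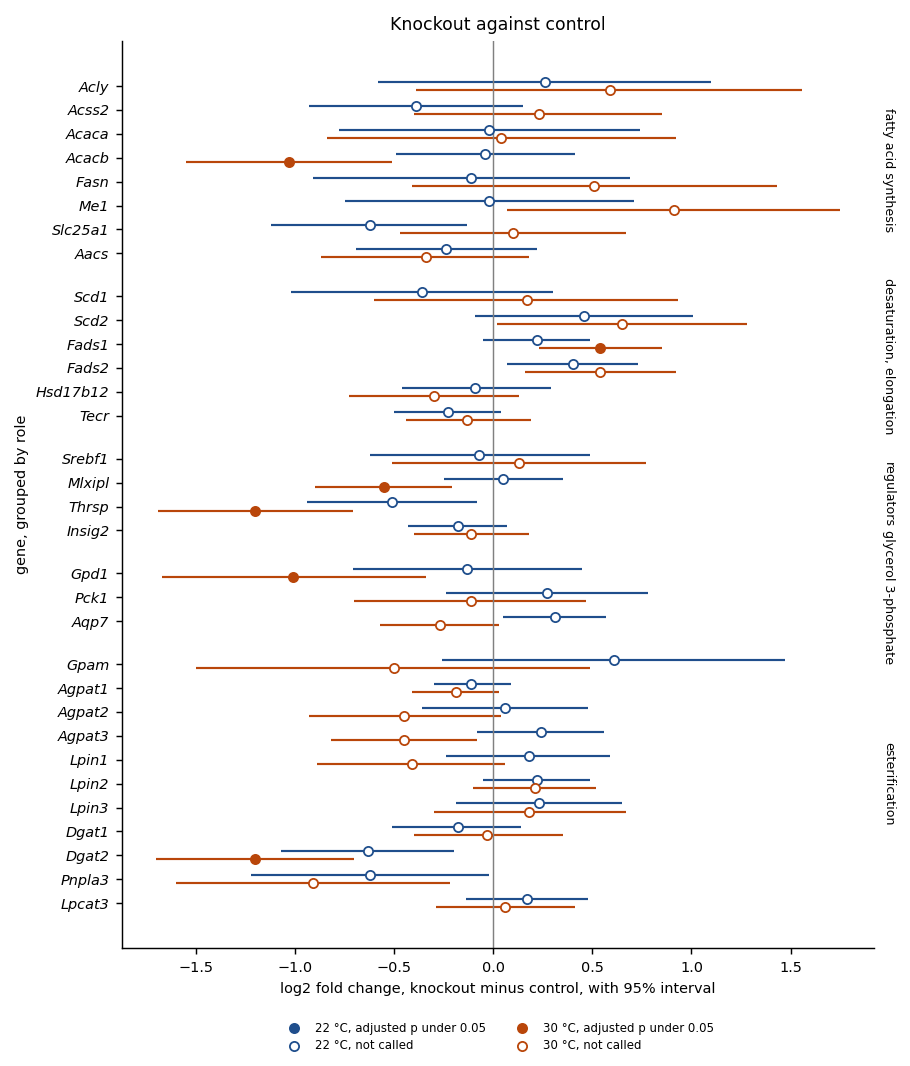
Log2 difference between knockouts and controls for the 32 genes at 22 °C (blue) and 30 °C (orange), with 95% intervals; filled points have an adjusted p under 0.05. The 6 filled points are all at 30 °C, with Thrsp, Dgat2, Acacb, Gpd1 and Mlxipl to the left of 0 and Fads1 to the right.

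At room temperature, with 4 knockouts and 4 controls, limma called 0 of the 32 genes, against 0.91% of all genes called higher in knockouts and 1.06% called lower. Without adjustment 6 of the 32 had a p under 0.05, beside 2060 of all 13079 genes. The exact permutation test reached its smallest p of 0.0286 for 2 of the 32, a count not taken over all genes. The median log2 difference was -0.03, with 0.00 over all genes. The smallest p belonged to Dgat2, at 1626, 1653, 1474 and 1323 in controls and 694, 933, 1239 and 1128 in knockouts. Every knockout was below every control, and the log2 difference was -0.63 (SE 0.20, adjusted p = 0.132). Aqp7 was at 95, 121, 115 and 107 in controls and 144, 134, 139 and 128 in knockouts, again without overlap, and its difference was 0.31 (SE 0.12, adjusted p = 0.216). These 2 were the genes with the smallest exact p. The other 4 with an unadjusted p under 0.05 were Slc25a1 at -0.62 (adjusted p = 0.198), Fads2 at 0.4 (adjusted p = 0.218), Thrsp at -0.51 (adjusted p = 0.22) and Pnpla3 at -0.62 (adjusted p = 0.299). Fads2 was called without the fourth control (0.59, adjusted p = 0.0114) and without both controls with R identifiers (0.56, adjusted p = 0.0252).

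Intervals at 22 °C were wide for the enzymes that varied most between animals. Fasn differed by -0.11 with a 95% interval of -0.91 to 0.69, Acaca by -0.02 with -0.78 to 0.74, and Scd1 by -0.36 with -1.02 to 0.30. For Acacb the interval was narrower, -0.49 to 0.41 around -0.04, with 315, 316, 274 and 165 in controls and 267, 233, 259 and 248 in knockouts. Of the regulators, Mlxipl was at 133, 105, 149.7 and 127 in controls against 123, 111, 162 and 139 in knockouts. Srebf1 was at 124, 82.6, 135 and 87.1 in controls, and the first knockout was low, with 53.9, 129, 121 and 119 in that group. Insig2 was at 16.5, 14.3, 15.6 and 12.3 in controls against 11.9, 11.3, 13.3 and 14.8 in knockouts. All 3 regulators overlapped between genotypes, with differences of 0.05, -0.07 and -0.18. Gpd1 was at 2768, 2132, 2074 and 1375 in controls against 1915, 1364, 2135 and 2108 in knockouts, a difference of -0.13 (adjusted p = 0.859). In these animals 2 of 10 adipocyte markers, Adipoq and Cidec, were lower in knockouts, with summed markers of 16789 to 20789 in controls and 13017 to 14665 in knockouts. Of the 10 differences 3 were above 0, and the median was -0.12. Of 9 brown adipocyte markers 1 was called higher and 0 lower, with a median of 0.03. Macrophage sums were 39.4 to 55.1 and 59.6 to 168, and 0 of the 10 markers were called.

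The direction of the genotype comparison depended on how libraries were made comparable. The main factors, taken from nuclear genes expressed in every library, ranged from 0.822 to 0.947 for controls and from 1.05 to 1.2 for knockouts. With FPKM as deposited, the median of all genes moved to 0.24 at 22 °C and 0.307 at 30 °C, and the median of the 32 genes to 0.272 and 0.179. On that scale 7 of the 32 were called higher at 22 °C and 0 lower (Scd2, Fads1, Fads2, Aqp7, Agpat3, Lpin2 and Lpcat3). Of all 13079 genes 3167 were called higher and 81 lower there. At 30 °C as deposited 5 of the 32 were higher and 3 lower, beside 4280 and 291 of all genes. The same total over nuclear genes in every library left 2 higher and 3 lower at 30 °C. Of all genes it left 2229 and 409. Quantile normalization left 1 higher and 2 lower at 30 °C, beside 887 and 935 of all genes. Each library was also set to the level of its 10 adipocyte markers, of which 4 were themselves lower in the 30 °C knockouts. It moved the median of all genes to 0.518 and that of the 32 to 0.344 at 30 °C. There 10 of the 32 were higher and 3 lower, beside 7250 and 149 of all genes. The 10 were Acly, Acss2, Fasn, Me1, Scd2, Fads1, Fads2, Insig2, Lpin2 and Lpcat3, and the 3 were Thrsp, Dgat2 and Acacb. On this last scale Thrsp and Dgat2 were both at -0.74, Acacb at -0.58 and Fasn at 0.97. Dgat2 and Acacb were called lower at 30 °C under all of these scalings, and Thrsp under all but quantile normalization, where its adjusted p was 0.0522.

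**Figure D5:**
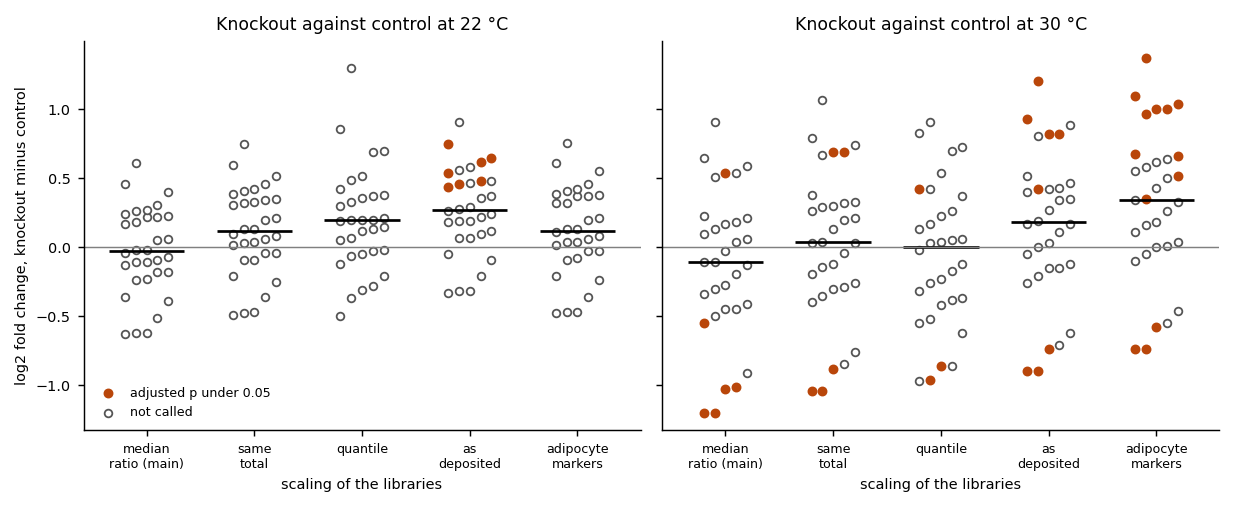
Log2 difference between knockouts and controls for each of the 32 genes under 5 scalings of the libraries, at 22 °C (left) and 30 °C (right); points are genes, filled where the adjusted p was under 0.05, and lines are medians. At 30 °C the median runs from -0.11 with the main scaling to 0.344 with the adipocyte scaling, and the lowest called genes stay below 0.

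Whether the genotype difference itself changed with housing was tested as the difference at 22 °C minus that at 30 °C. Limma called 0 of the 32 genes and 0% of all 13079 genes, with 5 of the 32 and 1692 of all genes at an unadjusted p under 0.05. The 3 smallest p-values belonged to Aqp7, Acacb and Agpat3. For Aqp7 the genotype difference was 0.31 at 22 °C and -0.27 at 30 °C, where it was at 186, 175 and 207 in controls and 148, 194 and 132 in knockouts, and the interaction was 0.59 (SE 0.18, adjusted p = 0.227). It was called without knockout 2 at 30 °C (0.75, adjusted p = 0.0478). Acacb had an interaction of 0.99 (SE 0.32, adjusted p = 0.239). Agpat3, an acyltransferase of phosphatidate synthesis, was at 119, 113, 92 and 76 in controls against 145, 107, 109 and 109.8 in knockouts at 22 °C. At 30 °C it was at 84.9, 98.5 and 94.7 in controls against 62, 79.1 and 62.6 in knockouts, which lay lower without overlap. Its interaction was 0.69 (SE 0.23, adjusted p = 0.248). For Mlxipl and Thrsp the interaction was 0.61 (adjusted p = 0.262) and 0.69 (adjusted p = 0.358). The calls at 30 °C and their absence at 22 °C therefore do not show that the genotype difference depended on housing, and sex cannot be told apart from housing here either.

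The wider pathway was described with 86 listed genes, of which 80 were tested. At 22 °C 2 of them were higher in knockouts and 0 lower, against 0.91% and 1.06% of all genes. Scd3, a further stearoyl-CoA desaturase, was at 0.19, 0.11, 0.22 and 0.053 scaled FPKM in controls and 10.1, 6.59, 1.11 and 3.08 in knockouts, a log2 difference of 2.19 (SE 0.38, adjusted p = 0.0109). Scd3 shares 91.4% of 1053 aligned bases with Scd1, which was far more abundant, so reads may have been split wrongly between them. Gpat3, a glycerol 3-phosphate acyltransferase, differed by 0.99 (adjusted p = 0.0452). At 30 °C 8 of the 80 were higher and 5 lower, shares close to the 8.82% and 5.29% of all genes. Gpat4, another acyltransferase of that step, was at 111, 128 and 117 in controls and 51.6, 59.9 and 40.2 in knockouts, a difference of -1.23 (SE 0.21, adjusted p = 0.00301). Fads3 rose by 1.79 (adjusted p = 0.012) and Scd3 by 1.45 (adjusted p = 0.0413). Among 22 tested genes of cholesterol synthesis and uptake, 2 rose and 2 fell, 17 of the 22 differences were above 0, and their median was 0.22, against 0.06 over all genes. Acat2, which condenses acetyl-CoA, fell by 1.27 (adjusted p = 0.000778) and Fdft1, squalene synthase, by 1.60 (adjusted p = 0.00846), while Mvd, a decarboxylase of the same pathway, rose by 0.58 (adjusted p = 0.0271). Srebf2, the regulator of that pathway, rose by 0.67 (adjusted p = 0.0022). Of the suppliers of precursors and NADPH, Mdh1 and Me3 fell by 0.72 and 0.65 on the log2 scale, and Pgd and Me2 rose by 0.82 and 0.5.

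Between the temperatures, 25 of these 80 genes were higher and 13 lower at 22 °C in controls, against 18.2% and 20.5% of all genes, and 32 and 21 in knockouts, against 21.8% and 29.3%. Elovl6, which lengthens palmitate, was at 218, 206, 179.9 and 130.3 in the 22 °C controls and 27.4, 34.4 and 23.7 in the 30 °C controls, a difference of 2.63 (SE 0.25, adjusted p = 3.73e-05). Elovl3, an elongase of brown fat, was at 80.4, 43.1, 10.8 and 10.6 at 22 °C against 0.075, 1.42 and 0.35 at 30 °C, a difference of 4.12 (SE 0.77, adjusted p = 0.0018). Gk, glycerol kinase, rose by 2.84 (adjusted p = 0.000304) and Gpd2, the mitochondrial glycerol 3-phosphate dehydrogenase, by 1.57 (adjusted p = 0.00127). In knockouts the same 4 genes rose by 2.0, 5.11, 3.0 and 2.52. Srebf2 was lower at 22 °C in both genotypes, by 0.42 in controls and 0.74 in knockouts on the log2 scale.

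Several members that were called in few comparisons are given here by their range over the 14 animals. Lpin2 lay between 1.86 and 3.65 scaled FPKM and Lpin3 between 2.62 and 6.93. Tecr lay between 143 and 235, and Dgat1 between 137 and 229. Agpat1 ran from 53.5 to 80.3, and Lpcat3, which loads polyunsaturated chains into phosphatidylcholine, from 20.3 to 36.2. Pck1 spanned 764 to 2139, and its differences between genotypes were 0.27 at 22 °C and -0.11 at 30 °C, neither called.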

How the data were processed

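The authors deposited 1 table of FPKM values, in which each animal has a column and genes have Ensembl identifiers; build mm9 is named in the submitters' processing notes, and the aligner, counter, annotation and use of strand are not given in the sources used here. RNA came from homogenized brown adipose tissue and libraries from standard Illumina protocols, per the labels' protocols. Of 35275 identifiers 34490 matched GENCODE M21, used for symbols, GC content and overlaps. Groups came from genotype and housing temperature in the labels. Nothing says whether litters or days differed, so p-values measure the spread between these animals.

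FPKM were divided by the median ratio over 10021 nuclear genes of at least 1 FPKM in every library. Genes with FPKM of at least 1 in at least 3 samples were kept (13079), and log2(scaled FPKM + 1) was fitted to all 14 animals with 4 group means by limma 3.58.1 (R 4.3.3; lmFit, eBayes with trend). The pseudocount of 1 understates changes of weak genes. Intervals (95%) come from the same fit. The Benjamini-Hochberg adjustment covered all genes tested, and an adjusted p under 0.05 was called. Depth came from the steps of low FPKM values, of which 90.9% to 92.6% per library lay within 0.05 of whole reads; no count test was run. The members and lists were chosen with earlier results of these data known. Values of every animal are given for genes called between genotypes, the 6 with the smallest adjusted p in each temperature comparison and the 3 with the smallest p in the interaction; regulators are always given, and of other lists at most 4 per comparison. A listed gene is not reported here. Those of Fasn, Gpam, Acaca, Pnpla3, Fads2 and Elovl3 in further groups, and the ranges of weak genes, were added after their values were seen. Alternatives covered the pseudocount, filter, scaling, moderation, sample weights, groups fitted, GC content, a muscle score, and leaving out animals. Scripts were tested on simulated data. Transcripts were aligned with blastn 2.17.0; Python 3.11.15, pandas 2.3.3, numpy 2.4.6 and matplotlib 3.10.9 were used.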

Additional observations from a re-analysis of the deposited data

Results flagged for a closer look

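In 7 of 64 combinations of a gene and a 22 °C group, 1 of the 4 animals stood apart from the other 3 by Dixon's test at the 95% level, which chance does in about 1 of 20. Fasn was lowest at 1239.7 scaled FPKM in the fourth control, and Fads2 was highest in that animal, at 7.96. Lpin3 was highest at 5.55 in the same control and at 6.93 in the first knockout. In the first knockout Srebf1 was also lowest at 53.9 and Agpat3 highest at 145, and Lpin2 was lowest at 2.50 in the third. The same animals recur across genes, so the 64 combinations are not independent trials to set against 1 of 20.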

How the results depend on the processing

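No paired analysis was possible because the labels give no number or litter that links animals of different groups. Of 49 called results, 37 kept their call and direction under every alternative and without any animal (15 between temperatures in controls, 21 in knockouts, and Dgat2 at 30 °C). An alternative ended 10 calls, leaving out an animal ended 10, and 1 reversed: Agpat1 in controls between temperatures went to 0.20 (adjusted p = 0.319) after GC correction. Of 111 results not called, 31 were called under some alternative. At 22 °C the count of 0 genes between genotypes became 7 with FPKM as deposited, 3 with sample weights (arrayWeights) and 1 without the 2 controls with R identifiers, and was 0 to 1 without each animal (1 without control 4); the median of -0.031 became 0.272 as deposited and 0.195 after quantile normalization, and was -0.163 to 0.076 without each animal. At 30 °C the 6 became 3 after quantile normalization, 13 with adipocyte scaling and 11 with sample weights, and 2 to 7 without an animal (3 without control 2 or control 3, 2 without knockout 1 or knockout 3); the median of -0.11 became 0.179 as deposited and 0.344 with adipocyte scaling, and was -0.15 to -0.062 without each animal. Between temperatures, counts without each animal were 16 to 22 in controls and 22 to 24 in knockouts. GC correction moved the median from 0.451 to 0.696 in controls, with 17 higher and 2 lower, and from 0.866 to 1.211 in knockouts, where adipocyte scaling gave 0.68; without each animal they were 0.389 to 0.626 and 0.804 to 1.05. The interaction count was 0 to 1 (Aqp7, without knockout 2 at 30 °C), and its median of 0.065 became -0.24 with adipocyte scaling and -0.051 to 0.12 without each animal. Where no value above shows it, the cause was not tested. Over all genes at 22 °C the 258 calls (119 higher, 139 lower) became 3248 as deposited (3167 and 81), 460 with equal totals (385 and 75), 906 with sample weights, 130 without a filter, 83 with the compared groups alone and 71 to 271 without an animal; adipocyte scaling gave 329 and 54. At 30 °C the 1845 (1153 and 692) became 4571 as deposited (4280 and 291), 7399 with adipocyte scaling (7250 and 149), 3650 with sample weights and 817 to 2112 without an animal; quantile normalization gave 887 and 935, equal totals 2229 and 409, and GC correction 908 and 1015. Between temperatures GC correction reduced 5071 calls in controls (2384 and 2687) to 2906 (1637 and 1269), and a mean FPKM of at least 5 reduced 6691 in knockouts to 4250, with fewer genes tested. The interaction had 0 calls in the main fit, 212 with sample weights and 135 without knockout 2 at 30 °C. The groups of 3 or 4 animals limit the precision of these values; what depth adds was not tested.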
